A study of Mus musculus with 10 samples.

Results

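Toll-like receptors are the membrane proteins with which lung macrophages, dendritic cells and epithelium recognise microbes. The 10 genes described here are Tlr1, Tlr2, Tlr3, Tlr4, Tlr5, Tlr7 and Tlr9, the co-receptors Cd14 and Ly96 and the adaptor Myd88. They were taken by name, from every probe set whose platform annotation gives that symbol alone, and this gave 16 of the 45101 probe sets on the array, for 10 of 18194 genes. Lung RNA came from C57BL/6J mice aged 2 weeks, 1 mouse per Affymetrix Mouse 430 2.0 array. The 6 smoke mice entered a chamber of cigarette smoke with their mother at the age of 1 day. They stayed in it 1 hour daily for 7 days and then 2 hours daily for another 7 days. Total particulates averaged 90 mg in each cubic metre of air. The 4 control mice breathed filtered air. The labels give sex as unknown and name no litter or array batch, so the tests cover only how much these 10 arrays vary.

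Tlr1, Tlr2, Tlr4 and Tlr5 sit on the cell surface and bind bacterial lipopeptides, lipopolysaccharide or flagellin, with Cd14 and Ly96 (MD-2) presenting lipopolysaccharide to Tlr4. Tlr3, Tlr7 and Tlr9 lie in endosomes and bind nucleic acids: Tlr3 binds RNA duplexes, Tlr7 single-stranded RNA and Tlr9 DNA with unmethylated CpG. All of these receptors except Tlr3 signal through Myd88 to NF-kappa B, whereas Tlr3 signals through Ticam1 (TRIF), and Tlr3 is itself a gene that interferon induces.

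Promoter windows from 250 bases before to 50 bases after the start site were present in the RefSeq table (GRCm38.p6) for 6 of the 10 genes, in 7 windows. The pair printed here belongs to the member that fell and to the common adaptor, whose window alone holds the exact core of the interferon-stimulated response element. Capitals mark the match, which in Tlr3 lies at -59 to -50 from the start site and in Myd88 at -40 to -31. Both windows are written on the strand of the gene, the minus strand, Tlr3 at chr8:45410331-45410630 and Myd88 at chr9:119339969-119340268.
Tlr3: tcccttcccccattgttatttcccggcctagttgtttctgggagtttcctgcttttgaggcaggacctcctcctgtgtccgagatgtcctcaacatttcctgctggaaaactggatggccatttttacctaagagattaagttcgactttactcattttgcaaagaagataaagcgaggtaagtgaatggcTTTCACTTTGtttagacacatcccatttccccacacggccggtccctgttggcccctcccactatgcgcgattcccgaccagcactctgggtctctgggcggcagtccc
Myd88: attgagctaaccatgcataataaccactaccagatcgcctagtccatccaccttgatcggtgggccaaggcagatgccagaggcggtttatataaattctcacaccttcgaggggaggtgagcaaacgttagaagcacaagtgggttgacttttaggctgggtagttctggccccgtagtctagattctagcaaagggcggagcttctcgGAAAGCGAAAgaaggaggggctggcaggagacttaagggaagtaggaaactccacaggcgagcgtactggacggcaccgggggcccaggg
The element was searched on both strands as GAAA, any 2 bases and GAAA. Myd88 held an exact match, the only one among the 7 windows, where 3.44% of all 32851 windows held one. The Tlr3 match needs 1 mismatch, as do those of Tlr1, Tlr2, Tlr5 and Tlr9. All of these lie on the strand opposite to the one written except that of Tlr9. With 1 mismatch allowed 6 of the 7 member windows and 35.4% of all windows held a match. Among the 90 windows of genes lower after smoke, 37.8% held the exact form and 73.3% the form with 1 mismatch. The letters TTCNNNGAA, a STAT core, were found in a window of Tlr1 and in that of Myd88, where the match at -46 to -38 overlaps the element shown, and in 8.30% of all windows. A kappa B form, GGGA, any 4 bases and CC, were found in the windows of Tlr2, Tlr3 and Tlr5 and in 20.7% of all windows. These are matches of letters and not measured sites.

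Of the 10 genes, only Tlr3 differed past the threshold between smoke and control lungs, and it was lower after smoke, by 2.45-fold. Levels are given as log2 normalized intensity, and a gene with several probe sets is represented by its brightest tested one. One of 9 members tested was lower and 0 were higher (limma, adjusted p under 0.05), where 0.702% of 13381 genes tested were lower, 0.0224% higher and 0.725% either. The tenth, Tlr7, had only probe sets under the filter on dim signals. At an unadjusted p under 0.05, limma also picked Tlr3 alone among these 9, where 10.2% of all genes tested were picked, so the members' count at that level was close to the background. In whole lung, fewer cells of a type and less RNA per cell cannot be told apart.

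**Figure D1:**
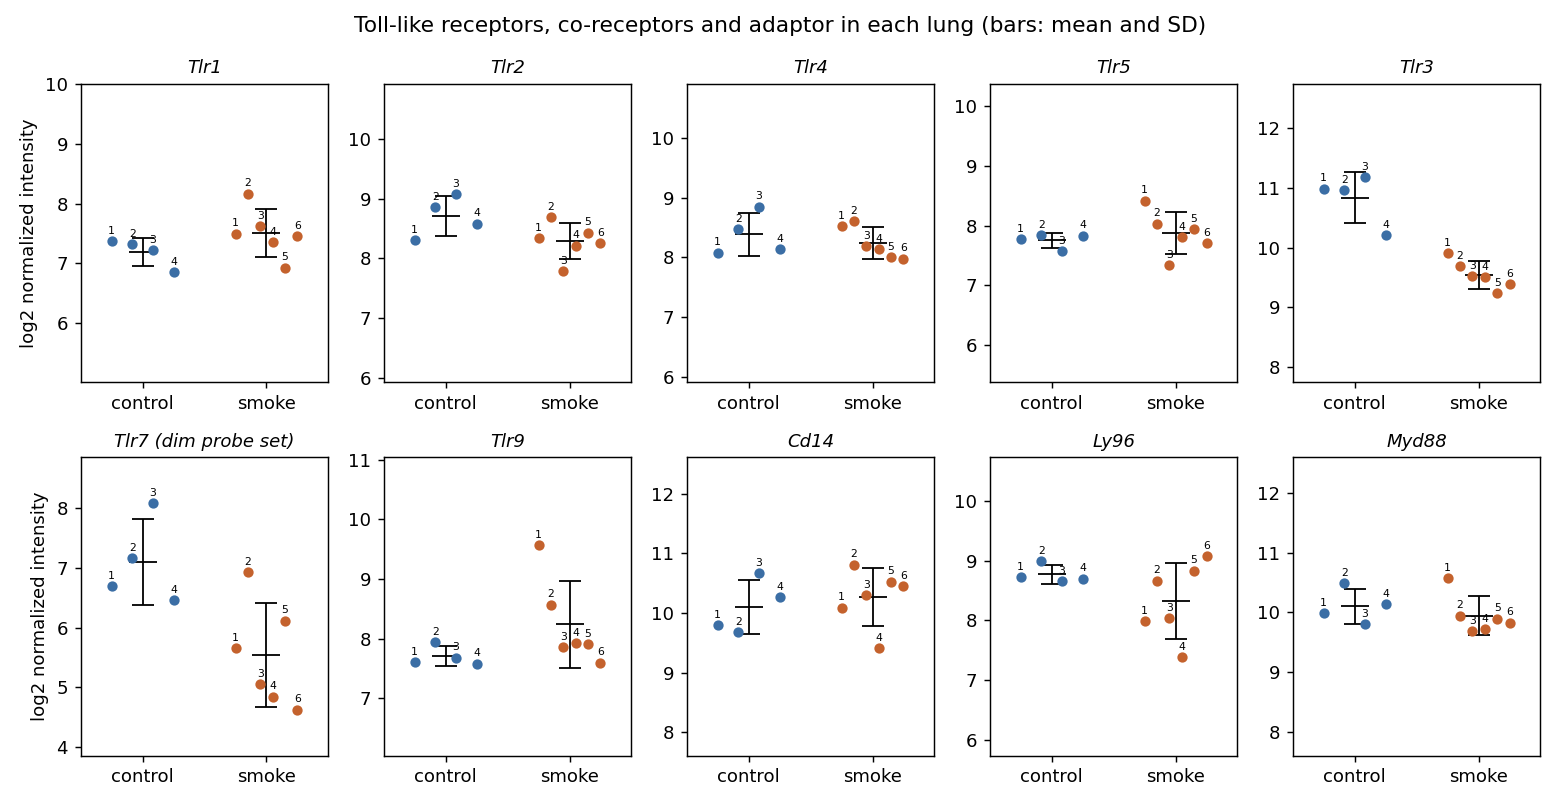
Log2 normalized intensity (y axis) of each gene in every control (blue) and smoke (orange) lung, numbered by array, with mean and SD as bars and an axis span of 5 in each panel. For Tlr3 the controls lie at 10.22 to 11.18 and the smoke lungs at 9.24 to 9.91, while the other panels overlap; Tlr7 is shown by 1422010_at, the one of its 3 dim probe sets with the smallest exact permutation p.

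Tlr3 was measured by probe sets 1422782_s_at and 1422781_at. On 1422782_s_at the controls had levels of 10.99, 10.96, 11.18 and 10.22 in arrays 1 to 4, and the smoke arrays 1 to 6 had 9.91, 9.69, 9.53, 9.51, 9.24 and 9.40. All 6 smoke arrays lay below every control, and control 4 was the control nearest to them. The deposited intensities were 1219.9 to 2367.5 in controls and 634.0 to 897.8 after smoke. Control lungs averaged 10.84 ± 0.42 (SD, n = 4) and smoke lungs 9.55 ± 0.23 (SD, n = 6), so Tlr3 fell by 1.29 on the log2 scale, with a standard error of 0.22 (limma, adjusted p = 0.0169). Arrays of the groups did not overlap in 4.09% of all genes tested, 2.11% with smoke lower, and among the 9 members tested this held for Tlr3.

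The other Tlr3 probe set had a larger but more variable difference. On 1422781_at the controls had levels of 8.97, 9.03, 9.02 and 8.73, and the smoke arrays 6.48, 6.53, 7.34, 6.42, 8.09 and 8.36. Smoke arrays 5 and 6 were thus the nearest to the controls on this probe set and the farthest from them on 1422782_s_at. The log2 difference was -1.73 ± 0.40 (SE) and did not pass (limma, adjusted p = 0.115), although all 6 smoke arrays again lay below every control. It passed without smoke replicate 6 (adjusted p = 0.0313) and without smoke arrays 5 and 6 (log2 difference -2.24, adjusted p = 0.00150). Leaving out these arrays, the nearest to the controls, enlarges the difference by itself. The probe set also passed with the array's log2 actin ratio in the model (-1.64, adjusted p = 0.00831). Genes passing in all were 324 lower and 418 higher without smoke arrays 5 and 6, and 220 and 151 with the actin ratio, against 94 and 3. The probe set did not pass when any single control was left out (adjusted p = 0.273 to 0.395) or any of smoke replicates 1 to 5 (0.0622 or more). Nor did it without smoke arrays 1 and 2 (0.1499) or with array weights (0.079).

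RNA quality differed between arrays, as read from the ratio of the 3' to the 5' actin probe set, which rises as RNA is shorter. It was 3.96 to 10.4 in controls, 31.6 and 29.4 in smoke arrays 1 and 2, 9.26 and 10.3 in smoke arrays 3 and 4, and 2.18 and 2.98 in smoke arrays 5 and 6. Smoke arrays 3 and 4, whose ratios match those of controls 1 to 3 (9.28 to 10.4), had Tlr3 levels of 9.53 and 9.51 against 10.96 to 11.18 in these controls on 1422782_s_at. On 1422781_at the same arrays had 7.34 and 6.42 against 8.97 to 9.03. Without smoke arrays 1 and 2 the log2 difference on 1422782_s_at was -1.42 (limma, adjusted p = 0.0100), and in a model holding the log2 actin ratio it was -1.33 (adjusted p = 0.00100). Xist, a transcript of female cells, was high (log2 11.1 to 12.9) in controls 2 and 4 and smoke arrays 5 and 6. These had Tlr3 levels of 10.96, 10.22, 9.24 and 9.40 on 1422782_s_at and of 9.03, 8.73, 8.09 and 8.36 on 1422781_at. On 1422781_at smoke arrays 1 to 4, at the Xist floor, had 6.42 to 7.34. Controls 1 and 3, with Xist at 5.98 and 6.37, had 8.97 and 9.02 on that probe set. Within the smoke group, high Xist and low actin ratios cannot be told apart, since arrays 5 and 6 had both. With the Xist level in the model the log2 difference was -1.46 on 1422782_s_at (limma, adjusted p = 0.00649) and -1.36 on 1422781_at (adjusted p = 0.265).

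**Figure D2:**
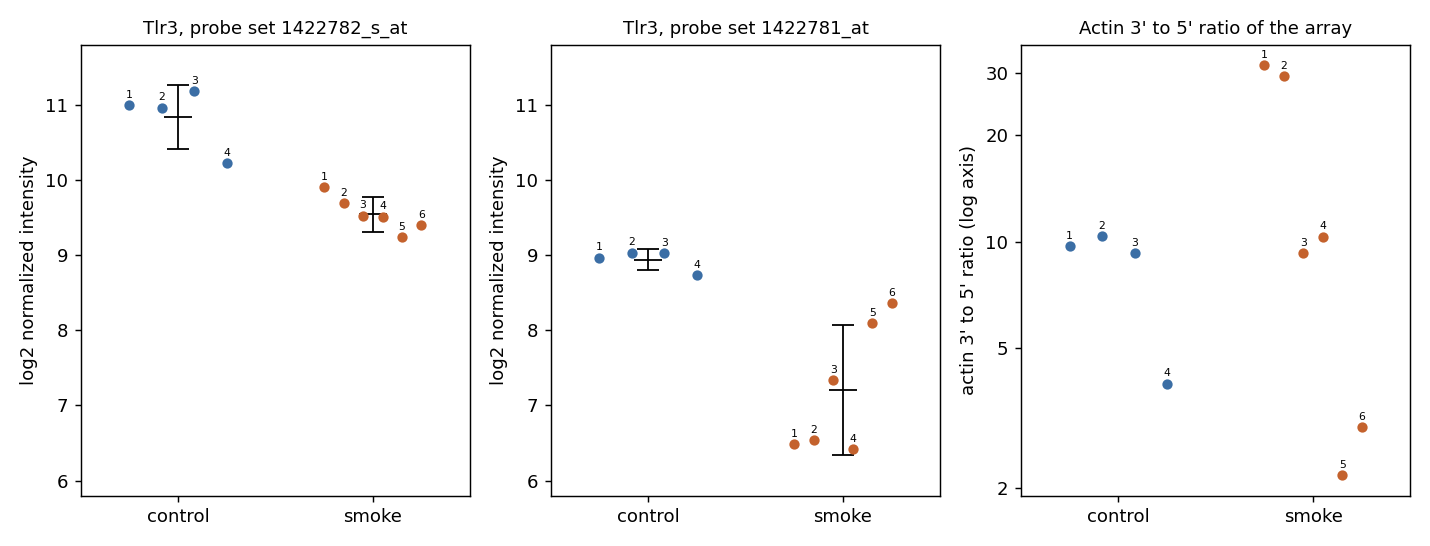
Log2 normalized intensity of the Tlr3 probe sets (left and middle, mean and SD as bars) and the actin 3' to 5' ratio on a log axis (right) in each numbered control (blue) and smoke (orange) lung. All 6 smoke lungs lie below the controls on both probe sets, with smoke lungs 5 and 6 at 8.09 and 8.36 on 1422781_at and the lowest actin ratios, 2.18 and 2.98.

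The Tlr3 call depended on single controls. It was lost without control replicate 1, 2 or 3 (limma, adjusted p = 0.0927, 0.101 and 0.0993), with log2 differences of -1.18 to -1.50 over all 10 single omissions, and when probe sets ending in _s_at or _x_at, which can match more than one transcript, were left out, since 1422781_at then stands for the gene.

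Whether Tlr3 changed more than the other members was tested within arrays, on the difference between its level and that of each other tested member, a test chosen after the values were seen. Tlr3 already had the largest difference of the tested members in these same arrays. The p-values do not allow for that choice, so small ones were favoured in advance and add no separate support. The log2 change of Tlr3 minus that of the other gene was -1.60 for Tlr1, -1.15 for Tlr4, -1.41 for Tlr5, -1.83 for Tlr9 and -1.13 for Myd88. In each of these 5 the exact two-sided permutation p was 0.00476, the smallest that 210 splits of 4 and 6 arrays can give, and 0.00762 when adjusted over the 8 differences. For Tlr2 and Cd14 it was -0.87 and -1.46 (exact permutation p = 0.0143, adjusted p = 0.0163 for both). For Ly96 it was -0.86 and did not pass (exact permutation p = 0.0810, also after adjustment), so the changes of Tlr3 and Ly96 were not shown to differ.

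Among the other receptors for nucleic acids, Tlr9 had a log2 difference of 0.53 ± 0.35 (SE; limma, adjusted p = 0.623). Its level was 7.61, 7.95, 7.68 and 7.58 in controls and 9.56, 8.57, 7.86, 7.93, 7.91 and 7.60 in the smoke arrays. Smoke arrays 1 and 2, those with the highest actin ratios, were above every control, and the other 4 lay among the controls. Without these arrays the difference was 0.12, and without smoke replicate 1 alone it was 0.27. The 95% interval with all arrays was -0.23 to 1.29.

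Tlr7 was dim on all of its 3 probe sets, and no background level is stated for them. On 1422010_at the deposited intensities were 91.1, 143.6, 258.7 and 86.7 in controls and 68.9, 115.5, 32.2, 37.4, 63.2 and 18.3 after smoke. In log2 levels 5 of 6 smoke arrays lay below every control, and smoke array 2 lay among them. The difference in log2 level was -1.56 (exact two-sided permutation p = 0.0238, or 0.0714 adjusted over the 3 Tlr7 probe sets). On 1419848_x_at and 1449640_at it was -0.064 and 0.13 (exact permutation p = 0.862 for both). The groups overlapped on both, at 4.55 to 6.37 and 4.96 to 7.57 in controls and 4.78 to 5.97 and 4.98 to 7.65 after smoke. When no filter was applied, 1422010_at did not pass in the fit over all probe sets (limma, adjusted p = 0.407). The probe sets of Tlr7 thus disagree, and no change of the gene was established.

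The surface receptors did not pass, and their intervals bound how large a change could be. Tlr2, which pairs with Tlr1 or Tlr6 to bind bacterial lipopeptides, had levels of 8.30, 8.86, 9.08 and 8.58 in controls. After smoke the lowest, median and highest were 7.78, 8.30 and 8.70. The difference was -0.42 ± 0.23 (SE; limma, adjusted p = 0.554; 95% interval -0.91 to 0.075), with 3 of 6 smoke arrays below every control. Tlr1 had 7.37, 7.33, 7.22 and 6.86 in controls and 6.93, 7.48 and 8.17 as lowest, median and highest after smoke, a difference of 0.31 ± 0.26 (adjusted p = 0.707; 95% interval -0.25 to 0.88). The partners therefore had differences of opposite sign, and neither was distinguishable from no change.

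Tlr4, the lipopolysaccharide receptor, was measured by 4 probe sets, of which 2 were tested. On 1418163_at the controls had 8.08, 8.47, 8.85 and 8.14 and the smoke arrays 7.98, 8.17 and 8.61 as lowest, median and highest, a difference of -0.14 ± 0.22 (SE; limma, adjusted p = 0.851; 95% interval -0.63 to 0.35). On 1418162_at it was -0.42 ± 0.27 (adjusted p = 0.615; 95% interval -1.004 to 0.17). The highest Tlr4 value on both was that of control 3, and without that array the difference on 1418163_at was 0.012. The untested probe sets 1430695_at and 1442827_at differed by 0.41 and -0.74, with 3 and 1 arrays at the floor set on low values. Tlr5, the flagellin receptor, had 7.77, 7.85, 7.57 and 7.84 in controls and 7.34, 7.88 and 8.42 as lowest, median and highest after smoke. Its difference was 0.12 ± 0.23 (adjusted p = 0.876; 95% interval -0.38 to 0.62), and -0.054 without smoke arrays 1 and 2.

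The co-receptors and the adaptor did not pass either. Cd14 was at 9.80, 9.68, 10.67 and 10.26 in controls and at 9.41, 10.38 and 10.81 as lowest, median and highest after smoke, a difference of 0.16 ± 0.28 (SE; limma, adjusted p = 0.868; 95% interval -0.46 to 0.78). Its spread within each group, with SDs of 0.45 and 0.48, exceeded the difference. Ly96 was close to uniform in controls, at 8.73, 8.99, 8.66 and 8.70, and spread after smoke, at 7.98, 8.67, 8.04, 7.38, 8.83 and 9.08 in arrays 1 to 6. Smoke arrays 1, 3 and 4 lay below every control and smoke array 6 above, for a difference of -0.44 ± 0.31 (adjusted p = 0.653; 95% interval -1.12 to 0.24). Without smoke arrays 5 and 6 it was -0.75 (adjusted p = 0.137). Ly96 and Cd14 were both lowest in smoke array 4.

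Myd88, which all the receptors here except Tlr3 use, was at 9.98, 10.49, 9.80 and 10.13 in controls and 10.58, 9.94, 9.69, 9.72, 9.89 and 9.82 after smoke. The 5 smoke arrays other than array 1 lay between 9.69 and 9.94, in the lower part of the control range or just under it. The difference was -0.16 ± 0.22 (SE; limma, adjusted p = 0.823; 95% interval -0.63 to 0.31), and -0.29 without smoke replicate 1. The interval leaves out a fall as large as that of Tlr3.

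**Figure D3:**
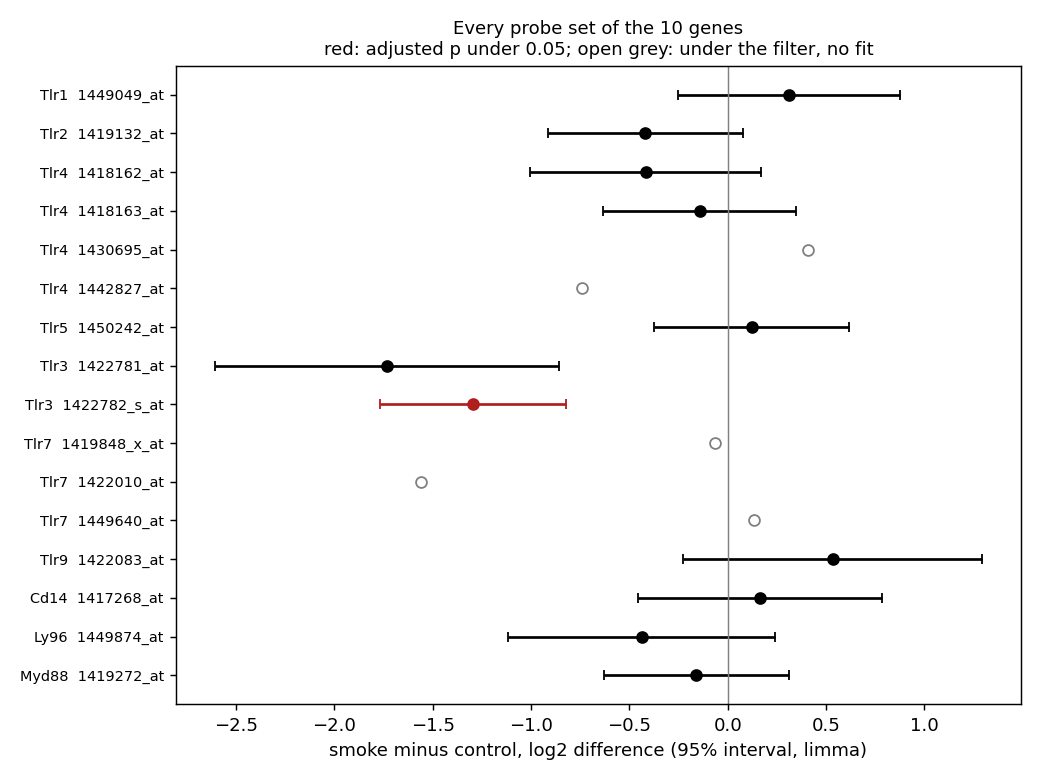
Smoke minus control difference in log2 normalized intensity (x axis) for each of the 16 probe sets (y axis), with 95% limma intervals for those tested. Tlr3 on 1422782_s_at (red) passed, at -1.29, the interval of 1422781_at also lies below 0, and open grey points were under the filter and have no interval.

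Other genes of the Toll pathway were taken from a list of 60, of which 53 matched a symbol and 48 were tested. Of the 48, 1 (Irf7) was lower, 0 were higher and 47 missed the threshold, where 0.725% of all genes tested passed it. The median log2 difference was -0.092, against 0.056 over all genes tested. Irf7 is a transcription factor with which Tlr7 and Tlr9 switch on interferon genes, and it is also induced by interferon. Its levels were 10.49, 10.51, 9.88 and 9.75 in controls and 8.60, 8.51, 8.42, 8.67, 9.05 and 8.30 after smoke. It fell by 1.57 ± 0.22 (SE; limma, adjusted p = 0.00523) and kept its call in all 10 single omissions. Arrays of the groups did not overlap in 4 of the 48 genes, where this held for 4.09% of all genes tested. The 4 were Irf7, Tlr13 and Hsp90b1, lower after smoke, and Map3k7, higher.

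Among the other genes of this list, none of the 7 receptors and co-receptors tested passed, with differences of -0.98 to -0.14. The most negative was Tlr13, a receptor for bacterial ribosomal RNA, at -0.98 ± 0.39 (SE; limma, adjusted p = 0.434), its level being 7.99 ± 0.11 (SD, n = 4) in control and 7.01 ± 0.82 (SD, n = 6) in smoke lungs. The 4 tested adaptors and their regulators, among them Ticam1, ranged from -0.26 to 0.10, and Ticam1, the Tlr3 adaptor, was at -0.14 ± 0.29 (adjusted p = 0.887). The 4 genes of receptor folding and transport ranged from -0.41 to 0.43, with the chaperone Hsp90b1 at -0.41 ± 0.15 (adjusted p = 0.392). Unc93b1, which carries the endosomal receptors out of the endoplasmic reticulum, was at -0.12 ± 0.30 (adjusted p = 0.904).

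In the signalling steps, 18 kinases and ubiquitin factors were tested and none passed, at -0.73 to 0.86. The kinase Map3k7 (TAK1) was at 0.86 ± 0.24 (SE; limma, adjusted p = 0.220), Map3k8 at -0.73 ± 0.32 (adjusted p = 0.479) and the ubiquitin ligase Peli1 at -0.48 ± 0.22 (adjusted p = 0.495). Of 15 transcription factors and their inhibitors, 14 did not pass.

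**Figure D4:**
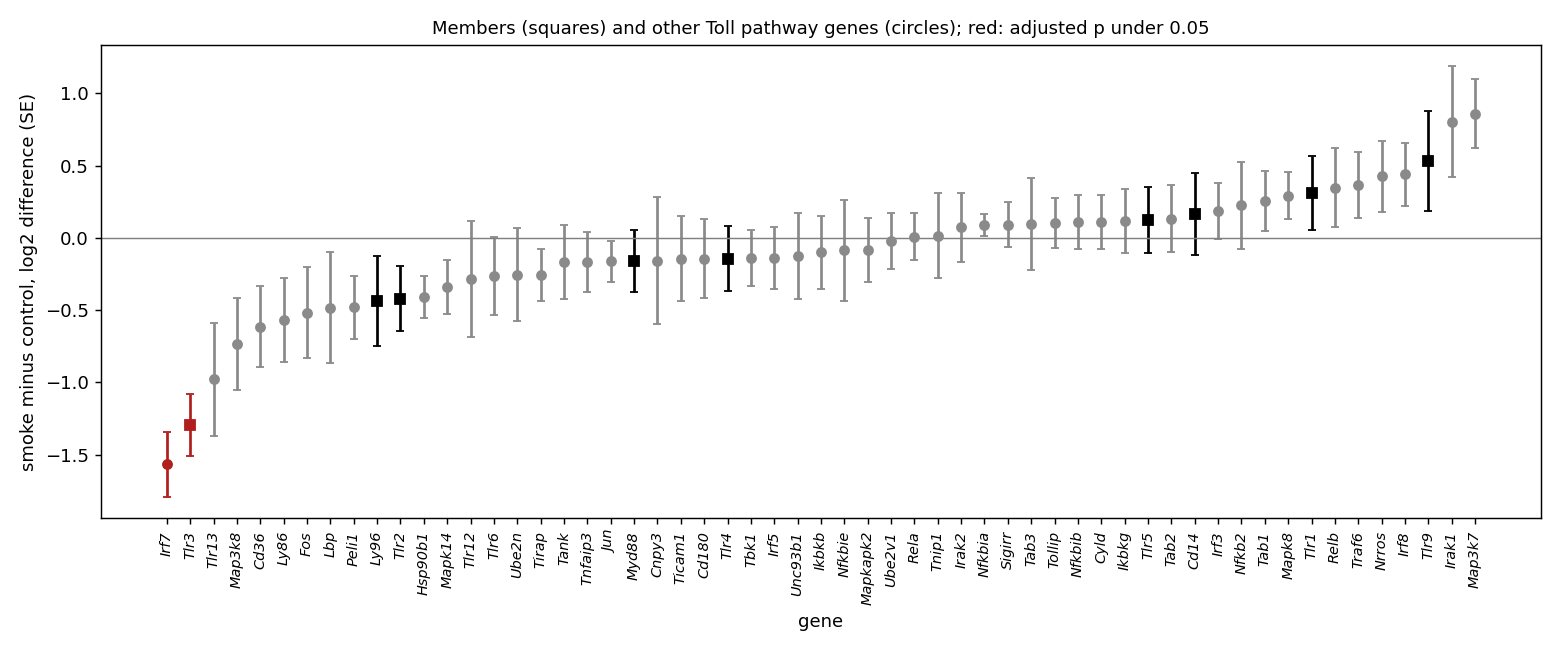
Smoke minus control difference in log2 normalized intensity with its standard error (y axis) for the 9 tested members (squares) and 48 other Toll pathway genes (circles), ordered by size. Irf7 at -1.57 and Tlr3 at -1.29 (red) are the only ones past an adjusted p of 0.05 and lie at the low end.

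No tested gene among those that Toll-like receptors induce through NF-kappa B passed the threshold. Of 36 listed, 23 were tested, 0 were lower and 0 higher (limma), with a median of -0.11 against 0.056 over all genes tested. The other 13, among them Tnf and Il6, were under the filter on dim signals. Arrays of the groups did not overlap in 2 of the 23, where this held for 4.09% of all genes tested. The 2 were Marcksl1, higher after smoke, and Cxcl10, lower. An unadjusted p under 0.05 was found for 2 of the 23, where 10.2% of all genes tested had one. The smallest p-values were those of Marcksl1 at 1.09 ± 0.34 (SE; adjusted p = 0.304), the chemokine Ccl5 at -1.38 ± 0.58 (adjusted p = 0.459), the apoptosis inhibitor Birc3 at -0.59 ± 0.28 (adjusted p = 0.517) and the co-stimulatory receptor Cd40 at 0.66 ± 0.32 (adjusted p = 0.518).

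The genes most like Tlr3 over the 10 arrays, by Pearson correlation of log2 level, were Ms4a4c, Ifih1 and Slfn8 (r = 0.965, 0.963 and 0.961). All 3 were lower after smoke, so that these correlations hold the difference between the groups. Ifih1, which encodes MDA5, the cytosolic sensor of RNA duplexes, fell by 2.13 on the log2 scale (limma, adjusted p = 0.000295). On deviations from the group means the nearest genes were Th, Slc16a3 and Nudt13 (r = 0.972, 0.962 and 0.927), none of which differed past the threshold between groups. For Tlr2 the nearest on levels were Pla1a, Klre1 and Gca (r = 0.962, 0.914 and 0.891), and on deviations Pla1a, Abhd13 and Ly75 (r = 0.945, 0.940 and 0.935). For Tlr9 they were Cish, Kif3c and C2cd4c on levels (r = 0.987, 0.971 and 0.969), and Pla2g10, Cish and Tmem106a on deviations (r = 0.988, 0.984 and 0.980). These are descriptions over 10 arrays that share differences in RNA quality, picked as the highest of 13381 genes.

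Interferon-induced genes as a group were lower in the same lungs: 14 of 17 tested passed as lower (limma), where 0.702% of all genes tested did. Of the 17 differences 16 were negative, with a median of -2.29 against 0.056 over all genes tested. Their summed intensity was 55309 to 75852 in controls and 11309 to 16354 after smoke. The list was chosen with earlier results of these data known. Irf7 counts in this list too. Cell type markers gave the surroundings of the receptors. For macrophages and monocytes, which carry most surface receptors, 0 of 14 markers passed, with control sums of intensity at 44322 to 60015 and smoke sums at 36914 to 49237. Of these 14 differences 12 were negative, with a median of -0.34 against 0.056 over all genes tested. An unadjusted p under 0.05 (limma) was found for 2 of the 14, against 10.2% of all genes tested. Of the neutrophil markers 3 of 8 passed as lower, where 0.702% of all genes tested did, and 7 of the 8 differences were negative. The 3 were S100a9, S100a8 and Mmp8, with log2 differences of -1.995, -1.60 and -1.39. Sums over the 8 were 25554 to 37050 in controls and 8131 to 17836 after smoke. The 5 that did not pass ranged from -0.84 (Camp) to 0.0012 (Ngp). The sums mostly reflect S100a8 and S100a9, whose control means were 14.1 and 13.5, against 8.90 (Mmp8) or less for the others. For B cells 0 of 7 passed, with sums of 1722 to 2370 and 2331 to 2900. Of the 7, 5 had an unadjusted p under 0.05 (limma), all higher after smoke, against 10.2% of all genes tested in either direction. Of the 7 differences 6 were positive, with a median of 0.61. For dendritic cells 0 of 5 passed, with sums of 1217 to 1628 and 1010 to 1735. For T cells 0 of 3 passed, and for blood 0 of 3. For lung epithelium 0 of 8 passed, with sums of 96382 to 106172 and 84341 to 114281. For endothelium 0 of 6 passed, all 6 differences were negative (median -0.38), and sums were 18406 to 25995 in controls and 12058 to 24912 in smoke lungs, lowest in smoke arrays 1 and 2 (14729 and 12058). No tested marker had a deposited intensity of 0 on any array, and 3 more neutrophil, 2 dendritic cell and 2 T cell markers were under the filter on dim signals. The part of these cells in the Tlr3 result was not tested.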

How the data were processed

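Lung RNA of 4 control and 6 smoke mice was extracted with Trizol, per the labels' protocols, and measured on Affymetrix arrays. The values the authors deposited are linear intensities, 1 for each probe set on each array. Which program summarised them is not given in the sources used here. Trimmed by 2% at each end, every array's intensities averaged 499.9 to 500.2. No detection calls were used.

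Median log2 intensity ran from 7.01 to 7.70, so arrays were quantile normalized on the log2 scale (1 value of 0 set to the smallest positive value) and then floored at the 10th percentile, an intensity of 15.8. Tests covered the 60% of probe sets with the highest mean level, 27022 in all, after dropping 64 Affymetrix control sets. Symbols came from the platform annotation: 34945 probe sets had 1 symbol, 932 several and 9160 none. Each gene stands by its brightest tested probe set, and a fit was made with limma 3.58.1 in R 4.3.3 (eBayes with trend, Benjamini-Hochberg over tested probe sets, threshold 0.05, two-sided). Tlr7, with no tested probe set, had exact permutation tests. Of 195 list entries 177 matched a symbol. The fit was tested on simulated data. Members, lists and alternatives were chosen with earlier results of these data known. Named genes were all members, the called genes of a list and the next by p (up to 6 of the pathway and 4 of the target list), called cell type markers (up to 4) and the 3 genes most like each of the 3 members with the smallest p. Other genes whose role a paragraph needed (Ticam1, Unc93b1) were added after their values were seen. Same-numbered arrays of the groups did not pair: correlations of their deviations were -0.0681, 0.171, -0.0604 and -0.0504. The lowest and highest correlations between arrays were 0.747 and 0.975, and 0 pairs were identical. Python 3.11.15 and matplotlib 3.10.9 made the plots.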

Additional observations from a re-analysis of the deposited data

Results flagged for a closer look

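Smoke array 1 stood apart for Myd88, at a log2 level of 10.58 against 9.69 to 9.94 in the other 5 smoke arrays, a gap of 0.712 of the group's range. It was the only such value in 32 groups of arrays examined over the 16 probe sets. Chance gives about 1 in every 20 groups, so 1 in 32 is no more than chance gives. The same array had the highest actin ratio, 31.6, and the part of RNA quality in this value was not tested.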

How the results depend on the processing

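Over 26 alternatives Tlr3 stayed lower, at log2 differences of -1.73 to -1.18. The call was lost with _x_at and _s_at probe sets left out (-1.73, adjusted p = 0.115), where 0 members were lower, and over single omissions the count of members lower was 0 to 1 and the Tlr3 difference -1.50 to -1.18. No other tested member passed under any alternative. Signs turned, with no call, for Tlr5 when arrays were weighted (-0.014) or smoke arrays 1 and 2 left out (-0.054), and for Tlr7 on 1419848_x_at as deposited (0.031) and on 1449640_at without smoke arrays 1 and 2 (-0.19). They also turned over single omissions, for Tlr4 between -0.24 and 0.012 (positive without control replicate 3), for Tlr7 on 1419848_x_at between -0.39 and 0.22 (positive without control replicate 4 or smoke replicate 4) and on 1449640_at between -0.32 and 0.55 (negative without control replicate 1 or 2 or smoke replicate 1). Tlr7 on 1422010_at lost an unadjusted exact permutation p under 0.05 without control replicate 3 (p = 0.0714) and without smoke arrays 5 and 6 (p = 0.0857).

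With the replicate number as a block (arrays 1 to 4), which the arrays do not bear out as pairs, Tlr3 was at -1.18 (limma, adjusted p = 0.0230), 2 Toll pathway genes were lower and 1 higher, and 1 Toll target gene was lower and 1 higher. Without the block, on the same arrays, the numbers were 2 and 0 and then 1 and 1. The series' design text asks for 6 of 9 pairwise comparisons at 1.5-fold or more. The rule was rescaled here to 16 of the 24 pairs of 4 and 6 arrays. As run, it also needed 1.5-fold or more between group mean levels and an unadjusted p under 0.05 (limma). The mean fold over the pairs, less its standard error, had to be 1.5 or more too. This rule gave 1 pathway gene higher and 1 target gene lower and 1 higher. Without smoke arrays 1 and 2, 2 pathway genes were lower. Over all genes, 94 were lower and 3 higher, but 344 and 444 with the block, 324 and 418 on the same arrays without it, 220 and 151 with the actin ratio, 142 and 41 with array weights and 297 and 181 under the rescaled rule. Without control replicate 2 or 3 the lower genes were 58 and 60. The higher genes were 1 to 6 over single omissions and 5 to 14 under the other settings of scaling, floor, filter and probe set that moved them by more than 1.5 times, and 10 without smoke arrays 1 and 2. Signal over background limits Tlr7 and 2 of the Tlr4 probe sets.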
